A study of Mus musculus with 35 samples.

Results

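The canonical Wnt target genes were Axin2, Nkd1, Notum, Rnf43, Znrf3, Lef1, Tcf7, Sp5, Cdx1 and Lgr5, 10 of the 54446 genes in the deposited expression table. They were found by symbol, as genes known to answer to Wnt signaling, and no measured value enters that rule. Each had a value in all 27 bulk RNA-seq libraries of mouse pluripotent cells and epiblasts that were analyzed, with 3 libraries in each of 9 groups. The 8 single-cell and bisulfite samples of the series were not analyzed here.

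All groups were labeled wild-type. The embryonic samples came from untreated embryos of 5 stages, labeled as the CD-1 strain and as male/female. The methods of the study name matings of CD1 or of the reporter line Pdgfrα:H2B-GFP as their source and say that sex was not determined. E3.5 was the inner cell mass, cut out by laser. At E4.5 the trophectoderm was removed by immunosurgery, and single GFP-negative epiblast cells of the reporter line were picked by hand. At E5.5 to E7.5 epiblasts were dissected from visceral endoderm and extra-embryonic ectoderm. At E7.5 the allantois was removed as well, so stage and this step cannot be told apart between E6.5 and E7.5. Each library was a pool of embryos. RNA of E3.5 and E4.5 was fragmented for longer and at a lower temperature than that of E5.5 to E7.5, so that stage, isolation, mouse line and fragmentation cannot be told apart between E4.5 and E5.5, nor can stage, isolation and mouse line between E3.5 and E4.5. The 4 cultures were epiblast stem cells (EpiSCs) or epiblast-like cells (EpiLCs). ESC-derived and embryo-derived 3D EpiSCs were grown in Matrigel with Fgf2, Activin-A, the BMP antagonist Noggin and the tankyrase inhibitor XAV939. 2D EpiSCs had been converted from ESCs, and EpiLCs were ESCs kept for 48 h, both in Fgf2 and Activin-A without XAV939 or Noggin. Embryo-derived EpiSCs came from LifeAct-GFP reporter or CD1 embryos. The ESCs themselves had been maintained with an inhibitor of Gsk3, a kinase that restrains the pathway. By the methods of the study, 3D EpiSCs also had another basal medium, a higher dose of Activin-A and Matrigel in place of fibronectin. These came together with XAV939, Noggin and the third dimension, and their parts in a difference between 3D and 2D cannot be told apart. The embryo-derived culture differed from 2D EpiSCs in cell origin and cell line as well.

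In the canonical pathway, Wnt ligands release β-catenin from a destruction complex of Axin, Apc, Gsk3 and casein kinase. β-catenin then enters the nucleus, binds Tcf and Lef factors and turns on target genes, many of which feed back on the pathway. Tankyrases mark Axin for breakdown, so their inhibition stabilizes Axin protein, a step that RNA does not show. In the gastrulating embryo, Wnt signaling at the posterior epiblast is known for its part in forming the primitive streak.

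Tcf and Lef factors bind DNA at variants of a short motif. The letters CTTTGATC and CTTTGATG were searched on both strands in the 2000 bases before each gene start on mm10. At least 1 match stood before 6 of the 10 members (Nkd1, Notum, Rnf43, Tcf7, Sp5 and Lgr5) and before 14.8% of 20774 autosomal protein-coding genes. Within 1000 bases, Nkd1, Notum, Tcf7 and Sp5 had a match, as had 7.36% of all genes. No match was found before Axin2, Znrf3, Lef1 or Cdx1, which says only that these letters are not in this window. The matches within 1000 bases are printed 5′ to 3′ on the strand of the gene, with the motif in capitals, because they lie closest to the starts. A match is a description and not evidence of binding.

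Sp5, chr2:70474808-70474837, plus strand, motif from base -104: ggcaaggccccCTTTGATCaggaaaatcca
Nkd1, chr8:88521260-88521289, plus strand, motif from base -83: gtccgcctcgcCTTTGATGggccgctgccg
Nkd1, chr8:88520550-88520579, plus strand, motif from base -793 on the opposite strand: aaactaagaaaGATCAAAGatccggcggtt
Notum, chr11:120661228-120661257, minus strand, motif from base -71: gtccgccgccgCTTTGATCccgggggcccc
Tcf7, chr11:52283356-52283385, minus strand, motif from base -360: gcccgcggtgcCTTTGATGttccgacccgc

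The promoter windows that RefSeq lists on GRCm38.p6 covered 6 of the members with 11 windows. The shorter core CTTTGAT was in 1 of these, that of Sp5, and in 3.73% of 32851 windows of all genes. The 250 bases before the start of Sp5 are shown with the core in capitals, because it was the single member window with a match.

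Sp5, chr2:70474673-70474922, plus strand: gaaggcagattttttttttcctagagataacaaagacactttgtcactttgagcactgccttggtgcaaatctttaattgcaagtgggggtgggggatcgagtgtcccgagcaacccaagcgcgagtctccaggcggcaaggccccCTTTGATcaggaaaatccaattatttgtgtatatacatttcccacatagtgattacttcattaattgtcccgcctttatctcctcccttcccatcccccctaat

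Levels are in TPM, the share of transcripts scaled to the same total in every library, as the authors deposited them. TPM keeps no record of depth, so no counting interval is given. Differences are of group means on the log2(TPM + 1) scale, which understates changes of low genes. A gene was called at a limma adjusted p below 0.05 and a difference above 1. Culture libraries were made by poly-A capture and embryo libraries from total RNA, so levels in the 2 sets are given side by side and were not tested. In bulk RNA, fewer cells of a type and less RNA per cell cannot be told apart. The labels do not say that replicates were separate cultures or dissections, so p-values measure the spread between libraries, which may be technical. Replicate 3 of the ESC-derived 3D EpiSCs stood apart, at a median absolute log2 difference of 0.27 from the other two, against 0.057 to 0.22 for the other pairs of culture replicates. Results that rest on this library are also given without it. However, replicates 1 and 2 of that culture were nearly identical (0.061). So were replicates 2 and 3 of the embryo-derived culture (0.057) and 1 and 2 of 2D EpiSCs (0.065). Such pairs, below 0.1, may be technical, which was not tested. Values without replicate 3 of the ESC-derived culture rest on such a pair and are not firmer for it.

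In the embryo, the summed level of the 10 members was 55.9 to 60.7 TPM at E3.5 and 466 to 478 TPM at E7.5. All 10 had their highest mean of the 5 stages at E7.5, and 7 had their highest of all 9 groups there. After TPM was rescaled by median-of-ratios factors, these counts were 7 and 5. Lef1 and Notum were then highest at E4.5 and Sp5 at E6.5 among the stages. The median of all genes tested differed by 0.31 between E7.5 and E6.5 and by at most 0.16 between other neighboring stages, so changes below are read against it.

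**Figure D1:**
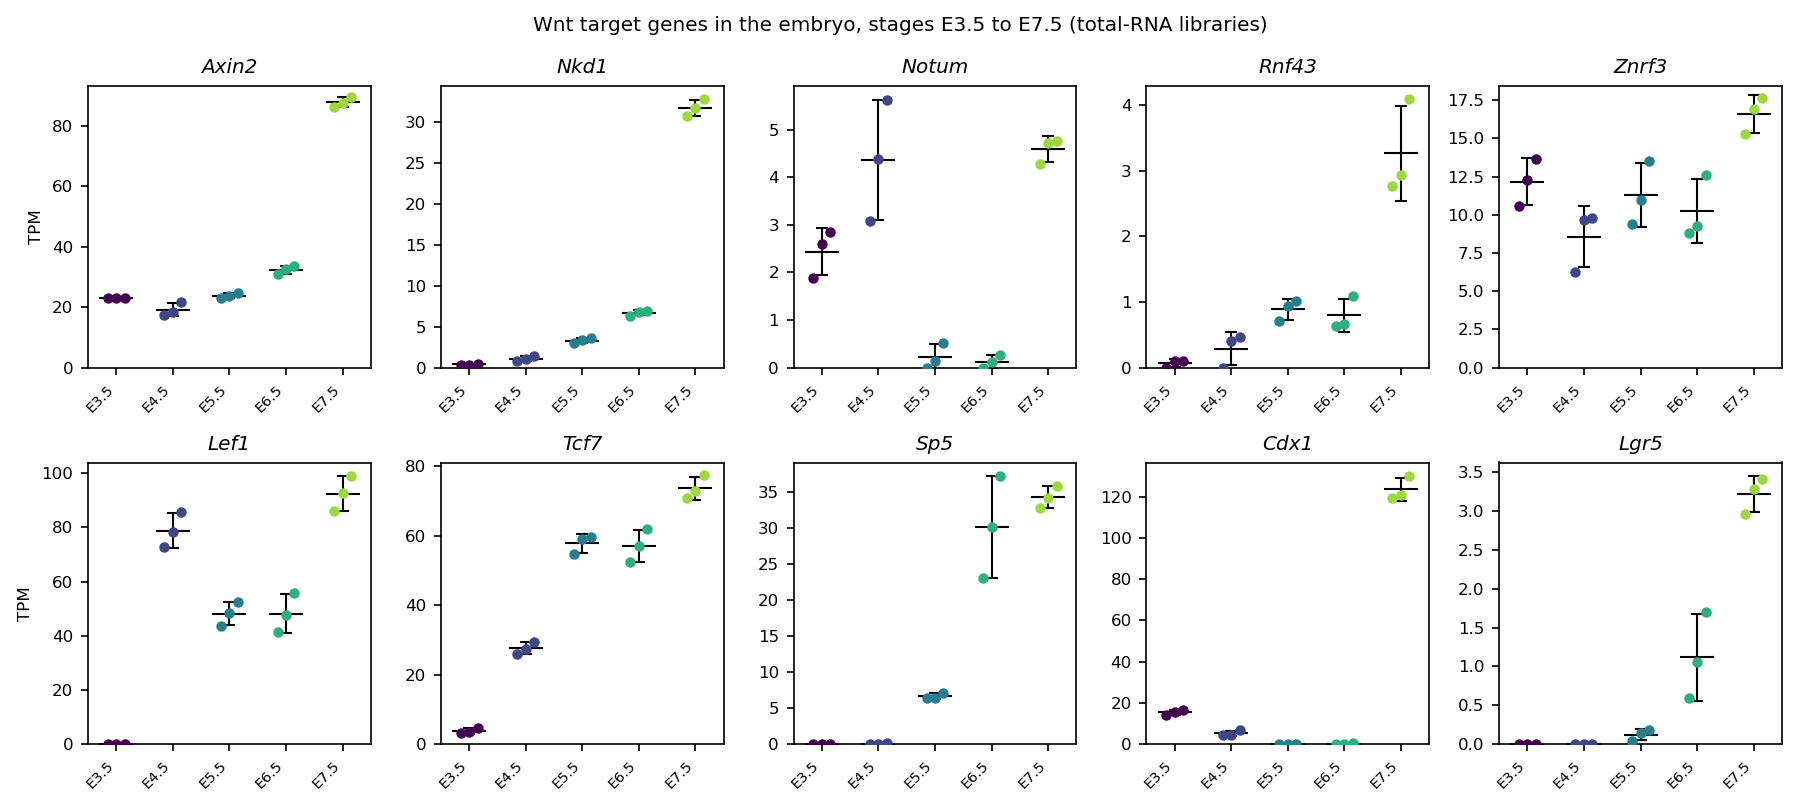
TPM of the 10 Wnt target genes (y axis, a separate linear scale from 0 for each gene) in the inner cell mass at E3.5 and the epiblast at E4.5 to E7.5 (x axis). Points are libraries, sorted by value within a stage, and bars are the mean ± SD (n = 3). Axin2 and Nkd1 stood apart at E7.5, Lef1 was near 0 at E3.5 alone, and Cdx1 was high at E7.5 after levels of 0 to 0.376 TPM at E5.5 and E6.5.

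The feedback inhibitors were described first. Axin2, a scaffold of the destruction complex and a widely used readout of the pathway, was at 23.1, 23.1 and 23.2 TPM at E3.5, 17.3, 21.6 and 18.5 at E4.5, and 23.8, 24.7 and 23.0 at E5.5. It was at 32.5, 33.7 and 30.9 TPM at E6.5 and at 86.3, 89.6 and 87.7 at E7.5. The E7.5 libraries lay far above all others, and those of E4.5 lay below those of E3.5. The rise from E6.5 to E7.5 was 1.41 ± 0.08 on the log2 scale (SE; adjusted p = 1.45e-08). Between E5.5 and E6.5 the difference was 0.42 ± 0.08 (adjusted p = 0.00578), under the fold threshold, with libraries that did not overlap.

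Nkd1, which binds Dishevelled and dampens the signal, had its libraries in order of stage without overlap. It was at 0.342 to 0.465 TPM at E3.5, 0.781 to 1.39 at E4.5, 2.96 to 3.58 at E5.5, 6.36 to 6.88 at E6.5 and 30.8 to 32.8 at E7.5. Its rise was 1.05 ± 0.10 from E4.5 to E5.5 (adjusted p = 8.66e-07) and 2.09 ± 0.10 from E6.5 to E7.5 (adjusted p = 2.38e-09). The first of these was 0.97 after rescaling and 0.94 without replicate 1 of E4.5, both under the fold threshold. From E5.5 to E6.5 the difference was 0.84 ± 0.10.

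Notum, a secreted enzyme that removes the lipid from Wnt ligands, had 2 periods of expression. It was at 2.59, 1.88 and 2.85 TPM at E3.5 and 5.62, 4.39 and 3.09 at E4.5, then at 0, 0.523 and 0.140 at E5.5 and 0.127, 0.258 and 0 at E6.5. At E7.5 it was back at 4.28, 4.76 and 4.72 TPM. It fell by 2.13 ± 0.18 from E4.5 to E5.5 (adjusted p = 2.88e-07) and rose by 2.31 ± 0.18 from E6.5 to E7.5 (adjusted p = 3.51e-07). An antisense gene, Notumos, shares 708 of the 2408 exonic bases of Notum, and its own mean level was 0.0045 to 0.37 TPM across stages. Whether the quantification used strand was not given in the sources used here.

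Rnf43 and Znrf3 encode related ubiquitin ligases that clear Wnt receptors from the cell surface, but their levels differed in course. Rnf43 was at most 0.106 TPM at E3.5, 0.463 at E4.5, 1.01 at E5.5 and 1.09 at E6.5, and reached 4.09, 2.76 and 2.94 at E7.5. It rose by 1.24 ± 0.16 from E6.5 to E7.5 (adjusted p = 2.55e-05). Only the E7.5 libraries passed the filter of 2 TPM for Rnf43, so a difference at E7.5 was built into its selection. Znrf3 was between 6.25 and 13.6 TPM in every library up to E6.5 and at 15.3, 17.7 and 16.9 at E7.5. Its difference from E6.5 to E7.5 was 0.66 ± 0.18 (adjusted p = 0.0065), under the fold threshold, with libraries that did not overlap. Over the alternative fits this difference ranged from 0.34 to 0.81, with limma adjusted p up to 0.154.

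Lef1 and Tcf7 encode DNA-binding partners of β-catenin. Lef1 was at 0.040, 0.096 and 0.039 TPM in the inner cell mass and at 78.2, 72.6 and 85.7 in the E4.5 epiblast. It rose by 6.23 ± 0.11 between these stages (adjusted p = 9.3e-14). It was at 52.3, 48.4 and 43.7 TPM at E5.5 and at 47.6, 55.7 and 41.3 at E6.5, so that these libraries overlapped. At E7.5 it was at 99.0, 85.9 and 92.5, above E6.5 by 0.93 ± 0.11 (adjusted p = 1.63e-05), under the fold threshold. This difference ranged from 0.60 to 1.04 over the alternative fits. It passed the threshold only without replicate 2 of E6.5 (1.04). An antisense gene, Gm43352, shares 1208 of the 8788 exonic bases of Lef1, and its mean was at most 1.45 TPM in any stage.

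Tcf7 was at 3.27, 4.73 and 3.39 TPM at E3.5, 27.3, 29.5 and 26.0 at E4.5, and 54.7, 59.0 and 59.8 at E5.5. It rose by 2.59 ± 0.11 (adjusted p = 3.46e-10) and then by 1.04 ± 0.11 (adjusted p = 2.21e-06). The second rise was 0.90 after rescaling and 0.999 without replicate 3 of E4.5, where it no longer passed the threshold. The libraries of E6.5, at 61.8, 57.0 and 52.5 TPM, overlapped those of E5.5. At E7.5 Tcf7 was at 70.9, 77.4 and 72.9, a difference of 0.36 ± 0.11 that is close to the median of all genes.

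Sp5, a zinc-finger factor that acts on other Wnt targets, was listed at 0 in all libraries of E3.5 and at 0, 0.162 and 0 TPM at E4.5. It was at 6.41, 7.11 and 6.46 TPM at E5.5, 37.2, 30.1 and 23.0 at E6.5, and 32.8, 35.8 and 34.1 at E7.5. It rose by 2.86 ± 0.13 from E4.5 to E5.5 (adjusted p = 4.94e-10) and by 2.00 ± 0.13 from E5.5 to E6.5 (adjusted p = 1.16e-06). The E6.5 and E7.5 libraries overlapped.

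Cdx1, a homeobox factor of posterior identity, was at 14.3, 16.7 and 15.4 TPM at E3.5 and 4.46, 4.63 and 6.73 at E4.5. It was listed at 0 in all 3 libraries of E5.5 and at 0.376, 0 and 0 at E6.5, before it reached 119.5, 130.0 and 120.9 TPM at E7.5. It fell by 1.41 ± 0.14 from E3.5 to E4.5 (adjusted p = 1.93e-06), was called lower again at E5.5 (adjusted p = 2.39e-09), and rose by 6.80 ± 0.14 from E6.5 to E7.5 (adjusted p = 7.7e-13). Lgr5, a receptor for R-spondins, which strengthen Wnt signals, was listed at 0 in all libraries of E3.5 and E4.5. It was at 0.179, 0.046 and 0.144 TPM at E5.5, 1.06, 0.588 and 1.70 at E6.5, and 3.29, 2.96 and 3.41 at E7.5. The libraries of successive stages from E4.5 onward did not overlap. Its difference from E6.5 to E7.5 was 1.03 ± 0.14 (adjusted p = 5.46e-05), but 0.79 after rescaling and 0.84 without replicate 2 of E6.5, and as with Rnf43 only E7.5 libraries exceeded 2 TPM.

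Counted over the 10 members, all of which passed the filter in the embryo, Lef1 and Tcf7 were called higher and Cdx1 lower at E4.5 than at E3.5, where 5.88% of the 11880 genes tested were called higher and 11.9% lower. At E5.5 against E4.5, Nkd1, Tcf7 and Sp5 were higher and Notum and Cdx1 lower, against 14.9% and 9.47% of all genes. At E6.5 against E5.5, Sp5 was the only member called, against 0.715% of genes called higher and 0.48% called lower. The E5.5 comparison also spans the change of isolation and fragmentation, and that of E7.5 the removal of the allantois. At E7.5 against E6.5, Axin2, Nkd1, Notum and Cdx1 were higher, as were Rnf43 and Lgr5, and no member was lower, against 10.6% and 1.94% of all genes. Rnf43 and Lgr5 had passed the filter only through the E7.5 libraries, so their calls were favored by that filter and the 6 calls are not a count free of it. Nkd1 and Sp5 likewise passed only through E5.5 and later stages. Rescaling moved the calls over all genes from 1265 higher and 231 lower (84.6% higher) to 733 and 385 (65.6%), and Lgr5 was then not called.

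**Figure D2:**
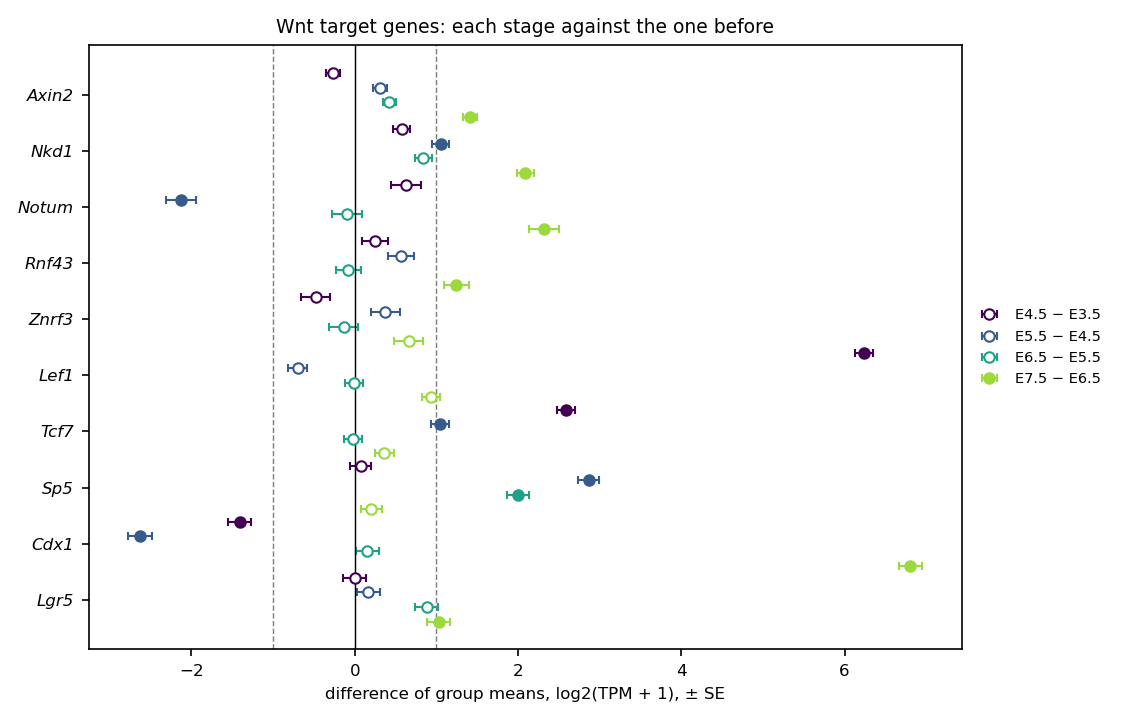
Difference of group means on the log2(TPM + 1) scale ± SE (x axis) of each Wnt target gene (y axis) between neighboring stages, by color. Filled points were called, open points were not, and dashed lines mark the fold threshold. E7.5 − E6.5 holds 6 of the filled points to the right, while the points of E6.5 − E5.5 lie near 0 for most genes apart from Sp5, Nkd1, Lgr5 and Axin2.

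Marker levels moved with these differences. From E6.5 to E7.5 the summed level of 4 pluripotency markers went from 931 to 1030.1 TPM down to 292 to 316, and that of 7 markers of primitive streak and nascent mesoderm from 399 to 537 down to 176 to 183. T itself, which is both a Wnt target and a streak marker, rose from between 28.1 and 31.0 TPM to between 93.1 and 98.4. Of the same list Tbx6 rose too (3.86) and Evx1 was not called (-0.20). Mixl1 (-3.10), Eomes (-4.99), Mesp1 (-1.92) and Fgf8 (-2.57) fell. Among the pluripotency markers Pou5f1, Nanog and Utf1 fell, and Sox2 was not called (0.25). The sum over 6 visceral endoderm markers was 94 to 123 TPM at E3.5 and E4.5, 670 to 724 at E5.5, 1128 to 1169 at E6.5 and 1285 to 1333 at E7.5, and none of the 6 was near 0 from E5.5 onward. The sum over 6 trophectoderm and extra-embryonic ectoderm markers was 455 to 483 TPM at E3.5, 437 to 447 at E4.5, 16.5 to 18.7 at E5.5, 29.4 to 38.1 at E6.5 and 152 to 167 at E7.5. These markers did not move together. From E3.5 to E4.5, Cdx2 (-2.72) and Gata3 (-1.26) fell, while Elf5 (1.33), Tfap2c (1.60), Krt7 (2.95) and Hand1 (3.82) rose. From E6.5 to E7.5, Hand1 (2.98), Cdx2 (3.23) and Gata3 (2.24) rose and Elf5 (-2.27) fell. Tfap2c and Krt7 were not called at that step. Primitive endoderm markers summed to 426 to 440 TPM at E3.5 and to 45.2 to 58.9 at E4.5, beside the lower level of Cdx1 and the higher one of Lef1. Whether these markers came from other cells, and the part of such cells in the results, was not tested.

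In the cultures, 8 members passed the filter. Notum was at 0 to 1.54 TPM in the 12 libraries, with its highest value in an EpiLC library. Cdx1 was listed at 0 in all 9 EpiSC libraries and at 0.081, 0.175 and 0.148 TPM in EpiLCs. Of the other members, Axin2 was between 6.22 and 19.3 TPM and Znrf3 between 5.94 and 10.5, both below their E7.5 libraries. Tcf7 was between 75.3 and 156 TPM in the cultures, against 70.9 to 77.4 at E7.5.

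**Figure D3:**
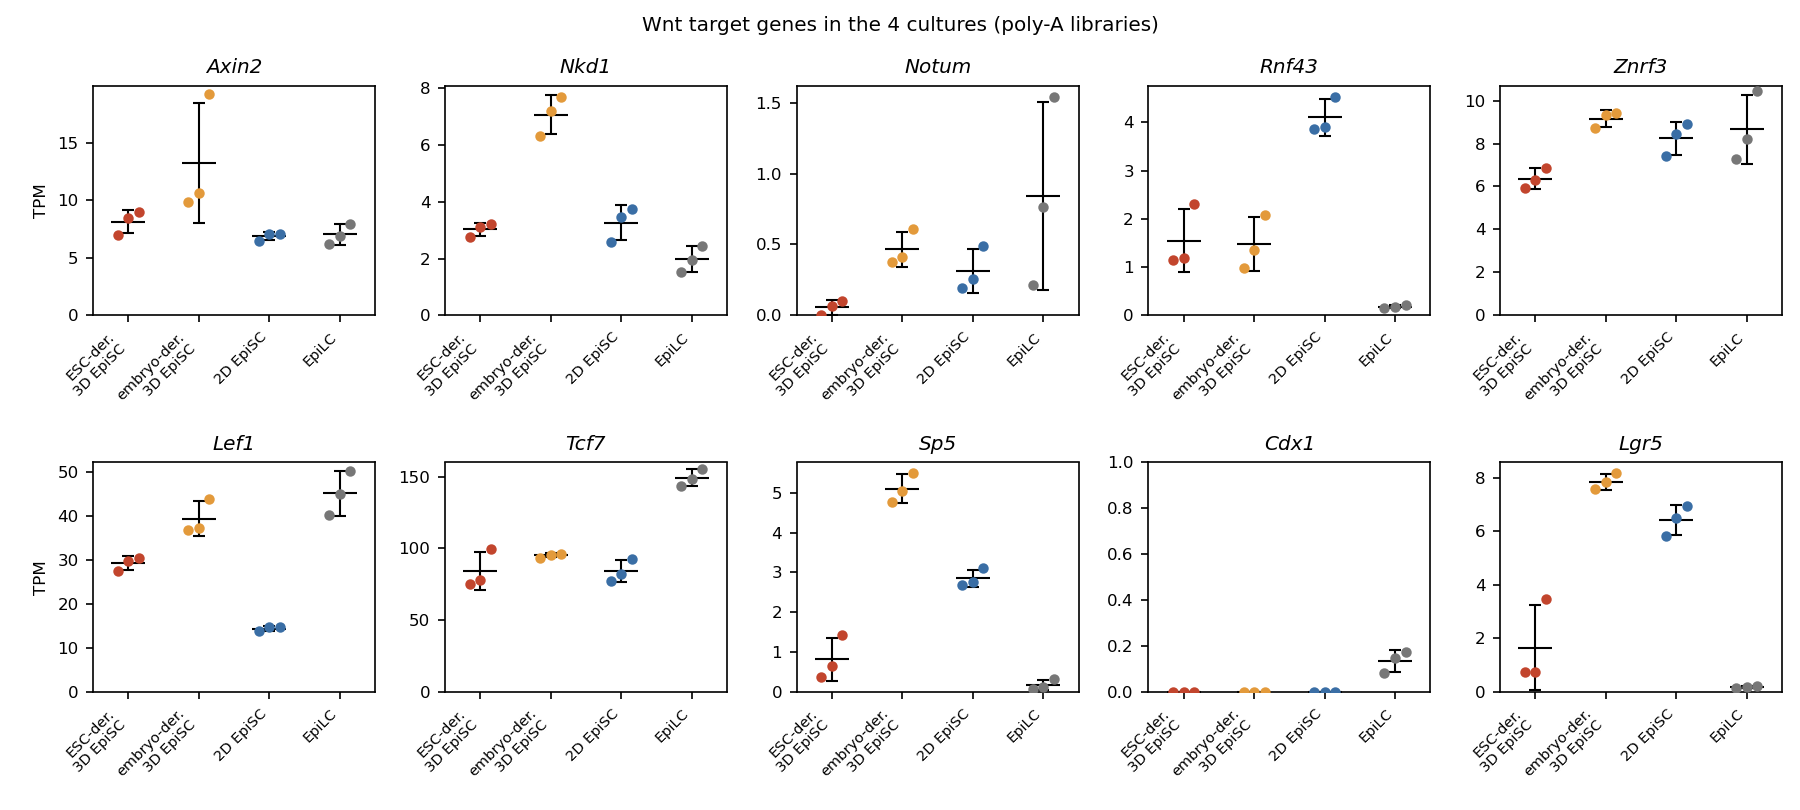
TPM of the 10 Wnt target genes (y axis, a separate linear scale from 0 for each gene) in the 4 cultures (x axis). Points are libraries, sorted by value within a culture, and bars are the mean ± SD (n = 3). Sp5 and Lgr5 were lower in 3D EpiSCs from ESCs than in those from embryos, Rnf43 was highest in 2D EpiSCs, and Lef1 was lowest there.

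Both 3D cultures, grown with XAV939, were compared with 2D EpiSCs, grown without it. This shows whether Wnt target genes were lower in these cultures, but not the part of the inhibitor, since other conditions differed too. The 2 comparisons share the 2D libraries. Against 2D EpiSCs, Rnf43, Sp5 and Lgr5 were lower in ESC-derived 3D EpiSCs, 3 of 8 members, and none was called higher, where 9.25% of the 11541 genes tested were called lower and 0.633% higher. All 2D libraries exceeded 2 TPM for these genes. Of the ESC-derived libraries, only replicate 3 did for Rnf43 and Lgr5, and none for Sp5. The filter thus favored these lower calls, and the count is not free of it. In embryo-derived 3D EpiSCs, Rnf43 was lower and Lef1 higher, where 7.75% of genes were called lower and 1.07% higher. The median difference over the 8 members of the ESC-derived 3D cells from 2D was -0.20, against -0.21 for all genes, and that of the embryo-derived cells was 0.46, against -0.08. The lower median of all genes in the first comparison was 0.02 after rescaling. Calls over all genes then went from 73 higher and 1068 lower (6.40% higher) to 151 and 690 (18.0%).

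Rnf43 was at 4.54, 3.91 and 3.86 TPM in 2D EpiSCs, at 1.14, 1.19 and 2.31 in ESC-derived and at 2.09, 0.990 and 1.34 in embryo-derived 3D EpiSCs. The 3D cultures overlapped each other and lay below 2D in every library. The differences were -1.03 ± 0.18 (adjusted p = 0.00116) and -1.07 ± 0.18 (adjusted p = 0.00101). Both were just past the fold threshold, at -0.85 and -0.96 after rescaling, and at -0.91 and -0.96 with near-identical replicates averaged. They also fell under it without replicate 1 (-0.92) or 2 (-0.94) of the ESC-derived culture, replicate 1 of 2D EpiSCs (-0.97), or replicate 2 of the embryo-derived culture (-0.92). Znrf3 was at 8.91, 7.42 and 8.42 TPM in 2D EpiSCs, at 6.88, 5.94 and 6.29 in the ESC-derived culture and at 8.73, 9.44 and 9.32 in the embryo-derived one. Its difference from 2D was -0.33 ± 0.12 in the former (adjusted p = 0.0445) and 0.14 ± 0.12 in the latter, and neither was called.

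Axin2 was not called in either comparison. It was at 7.09, 6.49 and 7.11 TPM in 2D EpiSCs, at 8.95, 8.47 and 7.02 in ESC-derived and at 19.3, 10.7 and 9.82 in embryo-derived 3D EpiSCs. The ESC-derived libraries overlapped those of 2D, and the embryo-derived ones lay above them by 0.79 ± 0.20 (adjusted p = 0.0106). Without replicate 1 of the embryo-derived culture, at 19.3 TPM, the Axin2 difference was 0.51, and that between the 3D cultures was -0.30 in place of -0.59. Nkd1 was at 3.75, 2.57 and 3.46 TPM in 2D, 2.76, 3.11 and 3.21 in the ESC-derived and 6.32, 7.69 and 7.20 in the embryo-derived culture. The difference of the embryo-derived culture from 2D was 0.93 ± 0.14 (adjusted p = 0.000408). It passed the fold threshold at a pseudocount of 0.1 (1.11), after rescaling (1.01) and without replicate 1 of 2D EpiSCs (1.01). Axin2 and Nkd1, which inhibit the pathway, were thus not called lower in either culture with XAV939. Among other inhibitors, Rnf43 was called lower in both, Znrf3 in neither, and Dkk1 in the ESC-derived one (-2.97). The part of XAV939 was not tested.

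Lef1 was higher in the 3D cultures. It was at 13.7, 14.7 and 14.7 TPM in 2D EpiSCs, at 30.5, 29.7 and 27.4 in ESC-derived and at 43.9, 36.8 and 37.2 in embryo-derived 3D EpiSCs, and the 3 cultures did not overlap. The difference from 2D was 1.39 ± 0.11 for the embryo-derived culture (adjusted p = 3.28e-06). For the ESC-derived culture it was 0.98 ± 0.11 (adjusted p = 5.23e-05), under the fold threshold, and 1.02 at a pseudocount of 0.1, 1.22 after rescaling and 1.02 without replicate 3, where it passed. Tcf7 was at 82.0, 77.3 and 92.4 TPM in 2D, 75.3, 78.0 and 99.3 in the ESC-derived and 93.5, 96.3 and 95.2 in the embryo-derived culture, and was not called.

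Sp5 and Lgr5 set the 3D cultures apart. Sp5 was at 0.379, 0.642 and 1.42 TPM in ESC-derived, 5.05, 5.49 and 4.78 in embryo-derived and 2.76, 2.69 and 3.10 in 2D EpiSCs, without overlap between cultures. Against 2D, the difference was -1.13 ± 0.17 in the former (adjusted p = 0.000462) and 0.67 ± 0.17 in the latter (adjusted p = 0.0118). The former was -0.98 after rescaling and -0.95 without replicate 1, under the fold threshold, and Sp5 passed the filter only through the embryo-derived and 2D libraries. Lgr5 was at 0.739, 0.743 and 3.48 TPM in ESC-derived, 8.17, 7.84 and 7.58 in embryo-derived and 6.94, 6.52 and 5.85 in 2D EpiSCs. Its difference from 2D was -1.64 ± 0.28 in the ESC-derived culture (adjusted p = 0.000996) and -2.09 without replicate 3, the library that stood apart. In the embryo-derived culture it was 0.26 ± 0.28 and not called.

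The direct comparison of the 3D cultures, which share a medium, tested this contrast. The cultures differed in both origin (ESCs or embryos) and cell line, and the parts of these cannot be told apart. With embryo-derived EpiSCs as the reference, Nkd1, Sp5 and Lgr5 were lower in the ESC-derived ones, 3 of 8 members, where 1.98% of genes were called lower and 1.98% higher. No ESC-derived library exceeded 2 TPM for Sp5, and only replicate 3 did for Lgr5. The filter thus favored their lower calls, and the count is not free of it. The differences were -1.0 ± 0.14 for Nkd1 (adjusted p = 0.00067), -1.79 ± 0.17 for Sp5 (adjusted p = 4.3e-05) and -1.89 ± 0.28 for Lgr5 (adjusted p = 0.00108). Without replicate 3 of the ESC-derived culture they were -1.03, -2.02 and -2.35, and 427 genes in place of 229 were called lower. Nkd1 was at the threshold and fell under it after rescaling (-0.89), with near-identical replicates averaged (-0.95) and without replicate 1 of the ESC-derived (-0.95) or replicate 2 or 3 of the embryo-derived culture (-0.95 and -0.99). Rescaling also moved the calls over all genes from 228 higher and 229 lower (49.9% higher) to 276 and 145 (65.6%). Axin2, Znrf3, Lef1 and Tcf7 had differences of -0.59, -0.46, -0.41 and -0.18 and were not called.

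**Figure D4:**
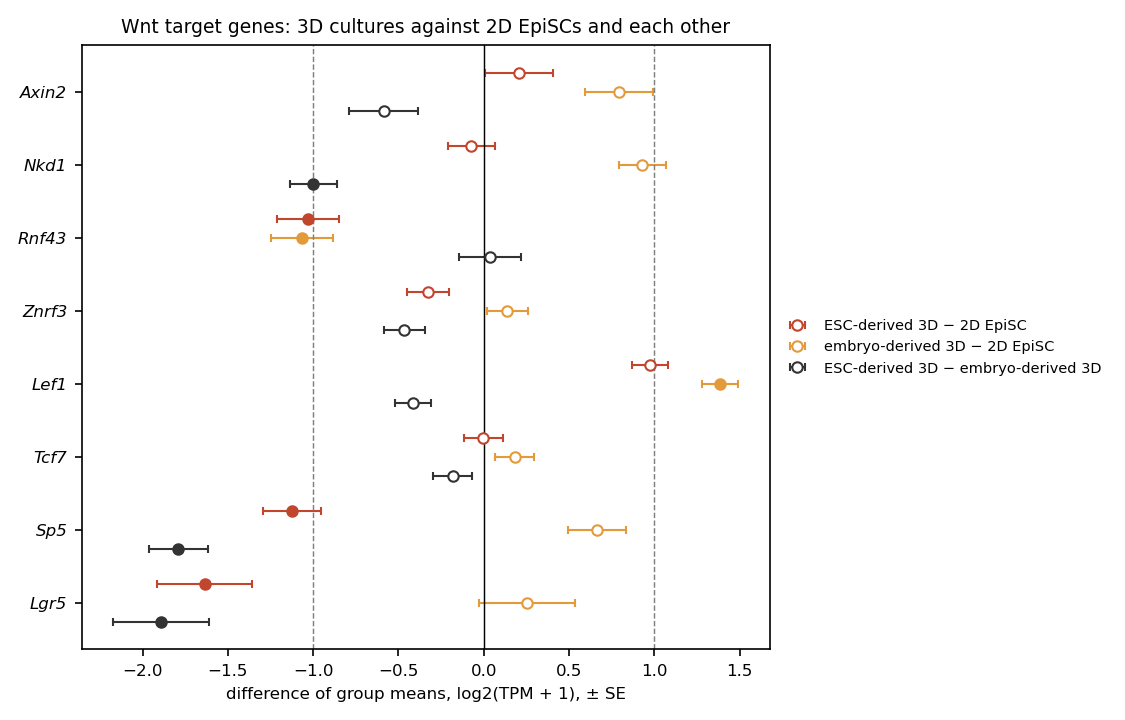
Difference of group means on the log2(TPM + 1) scale ± SE (x axis) of the 8 Wnt target genes tested in culture (y axis) for each 3D culture against 2D EpiSCs and for the 3D cultures against each other, by color. Filled points were called, open points were not, and dashed lines mark the fold threshold. Rnf43 was lower in both 3D cultures, while Sp5 and Lgr5 lay below 0 for the ESC-derived culture and above 0 for the embryo-derived one.

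The sum over the streak and nascent mesoderm markers was 102 to 162 TPM in ESC-derived, 264 to 422 in embryo-derived and 153 to 160 in 2D EpiSCs, and 17.9 to 29.7 in EpiLCs, the same order of the 3D cultures as for Sp5 and Lgr5. T was at 12.3 to 23.0, 21.4 to 54.6, 24.1 to 37.5 and 0.554 to 1.46 TPM in these cultures. The part of streak-like cells in the levels of the members was not tested. Some endoderm and trophectoderm markers also differed between 3D and 2D. The sum over 5 primitive endoderm markers was 47.1 to 60.9 TPM in 2D EpiSCs, 0.630 to 13.2 in ESC-derived and 11.9 to 25.1 in embryo-derived 3D EpiSCs, and 0.874 to 1.33 in EpiLCs. Against 2D EpiSCs, the ESC-derived culture had lower Gata4 (-2.83), Gata6 (-3.50) and Sox17 (-3.50), and the embryo-derived one had lower Gata4 (-2.49) and Sox17 (-1.77). In the embryo-derived culture Gata6 was not called (-1.34) and Pdgfra, of the same list, was called higher (1.33). In the ESC-derived culture Pdgfra was not called (-0.52). The trophectoderm gene Gata3 was lower in both (-2.73 and -2.51), and the 6 markers of its list summed to 10.9 to 18.1 TPM in 2D EpiSCs, 2.32 to 7.37 in ESC-derived and 7.31 to 11.9 in embryo-derived 3D EpiSCs. Of that list, Tfap2c was called lower in the ESC-derived culture (-1.56) but not in the embryo-derived one (-0.61). Krt7 was called in neither (-0.38 and 0.61). Visceral endoderm markers summed to at most 13.5 TPM in any culture. Whether these markers came from other cells in the cultures, and the part of such cells in the members' levels, was not tested.

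EpiLCs, 48 h from the ESC state, were the reference for the EpiSC cultures. They were not an earlier state of the embryo-derived culture, which differed from them in origin and cell line too. In 2D EpiSCs, Rnf43, Sp5 and Lgr5 were higher than in EpiLCs and Lef1 was lower, where 15.2% of genes were called higher and 5.14% lower. For the ESC-derived 3D culture, Rnf43 and Lgr5 were higher, against 5.33% of genes, and no member was lower, against 7.11%. In embryo-derived 3D EpiSCs, Nkd1, Rnf43, Sp5 and Lgr5 were higher, against 10.5%, and none was lower, against 8.28%. EpiLCs had Rnf43 at 0.178, 0.207 and 0.160 TPM, Sp5 at 0.123, 0.072 and 0.309, and Lgr5 at 0.189, 0.152 and 0.204. All these libraries lay below every EpiSC library, and none exceeded 2 TPM, so these genes passed the filter through EpiSC libraries alone and their higher calls were favored by it.

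The largest differences from EpiLCs were those of Lgr5, at 2.65 ± 0.28 in 2D EpiSCs (adjusted p = 1.07e-05) and 2.91 ± 0.28 in embryo-derived 3D EpiSCs (adjusted p = 5.14e-06). In ESC-derived 3D EpiSCs it was 1.01 ± 0.28 (adjusted p = 0.0118) and rested on replicate 3, without which it was 0.56. Rnf43 differed by 2.11 ± 0.18 in 2D (adjusted p = 2e-06), by 1.08 in ESC-derived and by 1.04 in embryo-derived 3D cells. The second value was 0.88 without replicate 3 and the third 0.87 without replicate 1 of its 3D culture. Sp5 differed by 1.72 ± 0.17 in 2D (adjusted p = 6.38e-06) and 2.39 ± 0.17 in the embryo-derived culture (adjusted p = 4.1e-07). Nkd1, at 2.45, 1.94 and 1.53 TPM in EpiLCs, differed by 1.45 ± 0.14 in the embryo-derived culture (adjusted p = 4.65e-06).

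Lef1 and Tcf7 had the opposite order. Lef1 was at 50.3, 44.9 and 40.1 TPM in EpiLCs and lower in 2D EpiSCs by 1.58 ± 0.11 (log2FC of -1.58, adjusted p = 2.81e-07). Tcf7 was at 143.7, 155.6 and 148.5 TPM in EpiLCs, above every other library of the series. Its difference in 2D EpiSCs from EpiLCs was -0.83 ± 0.11 (adjusted p = 7.48e-05), and -1.07 after rescaling, where it was called. The median of all genes in this comparison was 0.18, and rescaling moved the calls from 1756 higher and 593 lower (74.8% higher) to 1307 and 804 (61.9%). Axin2 was at 6.94, 6.22 and 7.98 TPM and Znrf3 at 10.5, 7.30 and 8.22 in EpiLCs, and neither differed from 2D EpiSCs beyond the spread (-0.02 ± 0.20 and -0.05 ± 0.12).

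By the order of mean levels over the 9 groups, Axin2 went from 2D EpiSCs and EpiLCs (6.90 ± 0.354 and 7.05 ± 0.886 TPM, SD) through ESC-derived (8.15 ± 1.01) and embryo-derived 3D EpiSCs (13.3 ± 5.25) to the embryo, where the lowest stage was E4.5 (19.2 ± 2.20). Neighbors among the cultures overlapped, other than the 3D cultures. Sp5 in embryo-derived 3D EpiSCs (5.10 ± 0.360 TPM) stood nearest to the E5.5 epiblast (6.66 ± 0.391), and Nkd1 there (7.07 ± 0.693) nearest to E6.5 (6.70 ± 0.294). Lgr5 in embryo-derived 3D and 2D EpiSCs (7.86 ± 0.299 and 6.44 ± 0.553 TPM) was above its E7.5 level (3.22 ± 0.231). These orders cross library kits and were not tested.

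The genes most like Axin2 were ranked by Pearson's r of log2(TPM + 1), as a description. Over the 15 embryo libraries, which share their stages, these were Rbm24 (r = 0.99), Wls (0.99), Irx5 (0.99), Daam2 (0.98) and Klhl29 (0.98). Rbm24, Daam2 and Klhl29 exceeded 2 TPM only at E7.5 and so passed the filter through those libraries alone. Among the 11880 genes tested, the members closest to Axin2 were Lgr5 at rank 169 (0.95), Nkd1 at rank 247 (0.93) and Rnf43 at rank 400 (0.90). Wls, the carrier that brings Wnt ligands to the cell surface, was at 8.62 ± 1.62 TPM at E4.5 and 78.6 ± 2.07 at E7.5. Over the 12 culture libraries the top genes were B3galnt2 (r = 0.91), Akt1s1 (0.89), Vipas39 (0.88), Acp1 (0.87) and Cbln2 (0.87). Among the 11541 genes tested there, the members closest to Axin2 were Nkd1 at rank 238 (0.67) and Sp5 at rank 877 (0.53). No gene was in the top 5 of both sets.

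Other genes of the pathway were taken from lists by role, 29 further target genes, 14 genes of the destruction complex and tankyrases, 12 of receptors and transducers and 16 nuclear partners of β-catenin. From E6.5 to E7.5, 14 of 24 further targets tested rose and none fell, where 10.6% of all genes rose and 1.94% fell. The filter of 2 TPM held for these lists too. It favored calls of genes that passed it through the higher group alone, so the counts of these lists are not free of it. Tbx6, for example, had means of 0.939 TPM at E6.5 and 25.1 at E7.5. The largest rises were those of Tbx6 (3.86), Wnt3a (3.38), Cdx2 (3.23), Sox9 (3.13), Wnt8a (2.90) and Msx2 (2.51). Tbx6 and Sox9 are transcription factors of mesoderm and of several later lineages, and Wnt3a and Wnt8a are ligands of the pathway. Cdx2, like Cdx1 a homeobox factor of posterior identity, is also a trophectoderm gene and had been at 157 to 168 TPM at E3.5. In the other lists 2 genes rose in all, the casein kinase gene Csnk1g1 (1.23, and 0.91 after rescaling, where it was not called) and the corepressor gene Tle2 (1.48).

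At the earlier steps, 3 of 24 further targets tested rose and 7 fell from E3.5 to E4.5, where 5.88% of all genes rose and 11.9% fell, with Jun (2.94) and Tnfrsf19 (1.98) among the former and Wnt3a (-3.09), Tbx3 (-2.74), Cdx2 (-2.72) and Dkk1 (-2.35) among the latter. Btrc, whose product recognizes β-catenin for breakdown, fell by 2.82. From E4.5 to E5.5, 8 of the 24 rose and 3 fell, where 14.9% of all genes rose and 9.47% fell. T was listed at 0 in all libraries of E4.5 and was at 4.42 to 5.93 TPM at E5.5. Bcl9, a co-activator of β-catenin (2.27), Tcf7l2 (1.54), the coreceptor gene Lrp5 (1.34) and Tnks, which encodes a tankyrase (1.17), also rose. From E5.5 to E6.5, T (2.36), Msx1 (1.37) and Evx1 (1.08) rose, 3 of the 24 against 0.715% of all genes, and no gene of the other lists was called.

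In ESC-derived 3D EpiSCs against 2D EpiSCs, 4 of 18 further targets tested were lower and none higher, where 9.25% of all genes were lower and 0.633% higher. They were Dkk1 (-2.97), Cd44 (-1.77), Ascl2 (-1.47) and Tnfrsf19 (-1.02). Dkk1, a secreted inhibitor of Wnt coreceptors, was at 0.121 to 13.4 TPM in the ESC-derived libraries and at 18.5 to 20.5 in 2D EpiSCs. Tnks (-1.23), Apc (-1.12), Csnk1g1 (-1.31), Tcf7l2 (-1.78) and the corepressor gene Tle4 (-1.11) were lower as well. After rescaling, Tnfrsf19 (-0.79), Tnks (-0.98), Apc (-0.87) and Tle4 (-0.86) were not called, and calls of lower genes over the whole table went from 1068 to 690. The median of the further targets was -0.60, against -0.21 for all genes. In embryo-derived 3D EpiSCs against 2D EpiSCs, Cd44 (-1.41) and Tcf7l2 (-1.18) were lower and no listed gene was higher, where 7.75% of all genes were lower and 1.07% higher. Between the 3D cultures, Prox1 (-1.14) and Tnfrsf19 (-1.15) were lower in the ESC-derived culture, against 1.98% of all genes. Without replicate 1 of the embryo-derived culture they were -0.88 and -0.97 and not called.

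In 2D EpiSCs against EpiLCs, 11 of 18 further targets tested were higher and none lower, where 15.2% of all genes were higher and 5.14% lower. They were led by T (3.99), Dkk1 (3.91), Jun (3.22), Ephb2 (2.35), Sox9 (1.94) and Cd44 (1.76). Their median was 1.15, against 0.18 for all genes. T was at most 1.46 TPM in EpiLCs, so its higher call was favored by the filter. Tcf7l2 (2.68), the kinase gene Csnk1e (1.32), Tnks (1.14) and Dvl3 (1.11), which encodes a Dishevelled protein, were higher too, though after rescaling Tnks (0.90) and Dvl3 (0.87) were not called. Tcf7l2 was at 4.21 to 4.98 TPM in EpiLCs, 28.3 to 40.3 in 2D EpiSCs, 7.87 to 11.4 in ESC-derived and 13.6 to 16.2 in embryo-derived 3D EpiSCs, so that the 4 cultures did not overlap. Tcf7l2 was thus highest in 2D EpiSCs, where Lef1 was lowest. Against EpiLCs, 4 further targets were higher in ESC-derived 3D EpiSCs, where 5.33% of all genes were, and 7 in embryo-derived ones, where 10.5% were, and Tle4 was lower in both (-1.76 and -1.55).

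**Figure D5:**
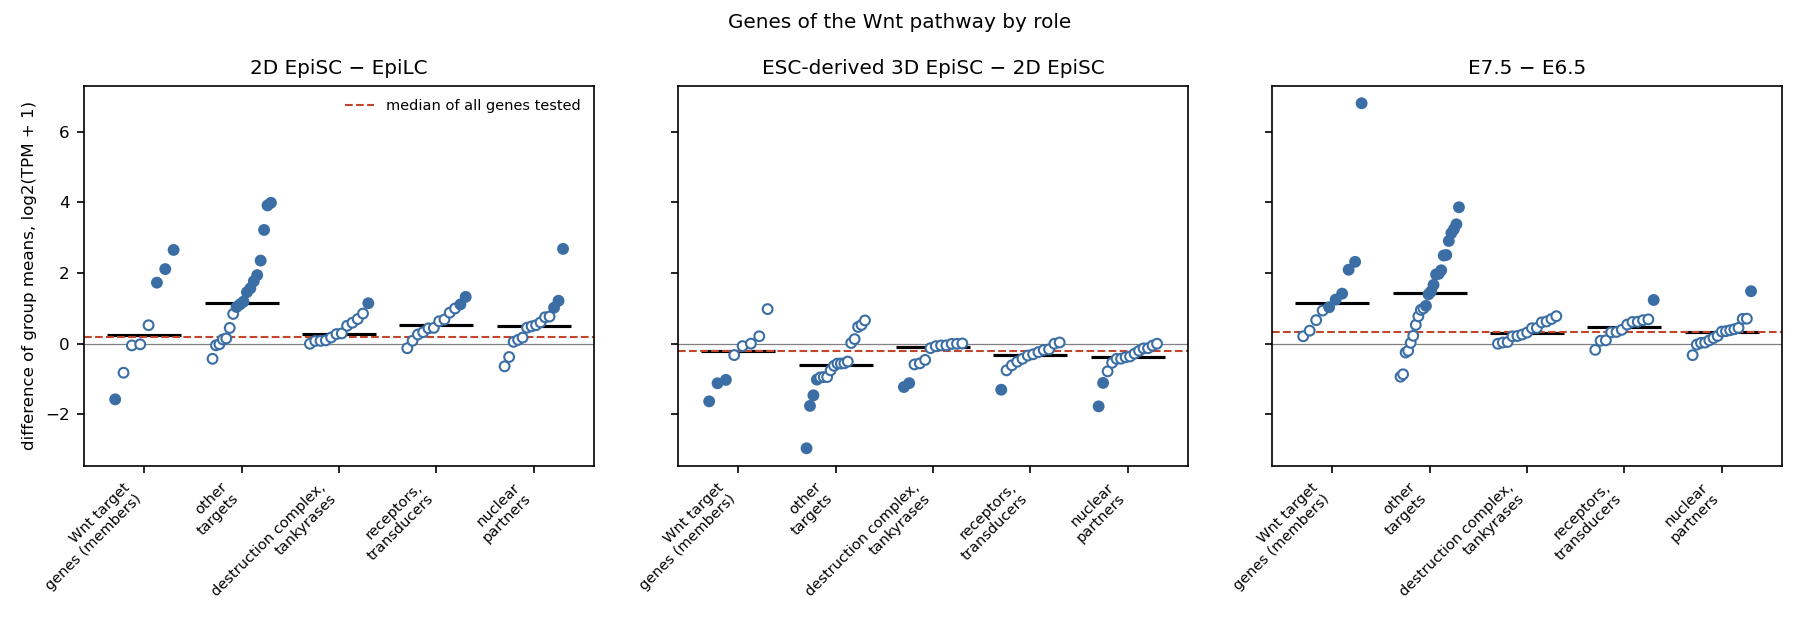
Difference of group means on the log2(TPM + 1) scale (y axis) of tested Wnt pathway genes by role (x axis) in 3 comparisons. Each point is a gene, sorted by value, and filled points were called; black lines are list medians and the dashed line is the median of all genes tested. In 2D EpiSC − EpiLC 4 of the 8 members tested lie above 0 and 4 below, while 11 further targets and Tnks of the destruction complex list were called higher. In E7.5 − E6.5 the medians of members (1.14) and further targets (1.43) lie above the dashed line (0.31). Those of receptors and transducers (0.46) and nuclear partners (0.34) lie above it by less, and that of the destruction complex list (0.31) does not.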

How the data were processed

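Bulk RNA-seq of 27 libraries (12 culture, 15 embryo) was used. The culture libraries were made with a poly-A kit and the embryo libraries with a ribosomal-depletion kit for total RNA. Reads had been trimmed (cutadapt 2.4), placed on the mm10 genome (STAR) and summed per gene (StringTie) by the authors. The authors deposited TPM, which sums to 1000000 in every library and keeps no depth, so precision is judged from replicates alone. No counts were in the table, so the count-based test of the study was replaced.

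Here, 54490 lines were summed to 54446 genes. Autosomal protein-coding genes above 2 TPM in at least 3 libraries of a fit (11541 in culture, 11880 in embryo) were tested as log2(TPM + 1) with limma 3.58.1 in R 4.3.3, with a single fit for the 4 cultures and another for the 5 stages. Calls needed an adjusted p (Benjamini-Hochberg, over all genes of a comparison) below 0.05 and an absolute log2 difference above 1. The fit was tested on simulated data. Groups came from the labels. Other steps used Python 3.11.15 with pandas 2.3.3.

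The rule for the members uses symbols alone, but this family of genes and the other gene lists were chosen with earlier results of these data known. All members were named, and from the other lists at most 6 called genes per list and comparison, those with the largest differences. Genes like Axin2 were the 5 with the highest Pearson's r. Results were recomputed at a pseudocount of 0.1, unfiltered, after median-of-ratios rescaling, with only the compared groups fitted, with a replicate block, with a variance trend on level, after averaging near-identical replicates, and without each library in turn. Deviations of same-numbered libraries from their group means had a mean correlation of -0.030 in culture and -0.017 in the embryo, so numbers were not taken to pair libraries. Protein sequences were not used here.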

Additional observations from a re-analysis of the deposited data

Results flagged for a closer look

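Under the same contrast with 2D EpiSCs, the effects of the ESC-derived and embryo-derived 3D cultures differed for 3 members and 2 further targets. The test was the limma comparison of the 3D cultures with each other, which is the difference of the 2 effects. The difference of effects was -1.89 for Lgr5, -1.79 for Sp5 and -1.0 for Nkd1, and -1.15 for Tnfrsf19 and -1.14 for Prox1. For Lgr5 and Sp5 the ESC-derived libraries lay below 2D EpiSCs and the embryo-derived libraries above them, in 3 of 3 libraries each. For Nkd1, the ESC-derived libraries overlapped those of 2D EpiSCs.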

How the results depend on the processing

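No member that was called changed direction under any alternative. Of the 88 differences of single members that were tested, 10 lost their call and 10 others gained one under at least 1 alternative. Fits in which a gene missed the filter are not counted here, so the Rnf43 call at E7.5 against E6.5, lost in that way, is not among the 10. Of 72 calls of other pathway genes, 17 were lost under at least 1 alternative. Against 2D EpiSCs, members called higher in ESC-derived 3D EpiSCs went from 0 to 1 at a pseudocount of 0.1 and after rescaling, and those called lower from 3 to 1 after rescaling. For embryo-derived 3D EpiSCs, the higher count went from 1 to 2 at a pseudocount of 0.1 and after rescaling, and the lower count from 1 to 0 after rescaling and with near-identical replicates averaged. Against EpiLCs, the lower count in 2D EpiSCs went from 1 to 2 after rescaling, and the higher count in ESC-derived 3D EpiSCs from 2 to 0 in a fit of only the compared groups, where Rnf43 and Lgr5 missed the filter. At E5.5 against E4.5, members called higher went from 3 to 5 at a pseudocount of 0.1 and to 1 after rescaling. At E6.5 against E5.5, they went from 1 to 3 at a pseudocount of 0.1. Leaving out a library gave 0 to 1 higher and 1 to 3 lower for ESC-derived and 1 to 2 higher and 0 to 1 lower for embryo-derived 3D EpiSCs against 2D, 0 to 2 higher for ESC-derived 3D EpiSCs against EpiLCs, and 1 to 2 higher at E6.5 against E5.5. At E7.5 against E6.5 it gave 4 to 6 higher, since Rnf43 and Lgr5 missed the filter without an E7.5 library.

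With the replicate block, member counts were as in the fit without it in every comparison, for example 3 lower for ESC-derived 3D against 2D EpiSCs and 6 higher at E7.5. Numbers were shared and not paired. Over all genes, counts moved by over 1.5 times as follows. For ESC-derived 3D against 2D EpiSCs, 73 higher became 129 at a pseudocount of 0.1. Between the 3D cultures, 228 higher and 229 lower became 374 and 345 at that pseudocount, and the lower count was 100 with near-identical replicates averaged. At E6.5 against E5.5, 85 and 57 became 136 and 126, and at E7.5 against E6.5, 231 lower became 354, both at that pseudocount. Without an EpiLC library, 593 lower in 2D EpiSCs became 342 to 375, and without its replicate 1, 821 lower in ESC-derived 3D EpiSCs became 544. Causes were not tested. Members near 1 TPM are limited by the pseudocount, and depth is unknown.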
